A study of Mus musculus with 8 samples.

Results

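The genes described here build the contractile unit of heart muscle: 38 genes of the sarcomere's thin filament, of titin and the Z-disc, of the M-band, and of factors that assemble or maintain myofibrils. They were taken by name from a table of 38293 genes, and all 38 were matched. The list holds 10 genes of the thin filament and its regulators, 17 of titin and the Z-disc, 4 of the M-band and 7 assembly factors. RNA came from cardiac ventricle, left and right mixed, of mice aged 8 weeks, and was sequenced after poly(A) selection. There were 4 samples of mice heterozygous for a deletion at coding position 1755 of Pkp2 (genotype PKP2 c.1755A/WT in the labels, here HET) and 4 samples of wild-type mice (PKP2 WT/WT, here WT). Every cell of a heterozygote carries the allele, so the design has no tissue-restricted step. The labels do not say that each sample is a separate animal, so the p-values measure the spread between these samples, which may be partly technical.

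The sarcomere is the repeating unit of striated muscle. Thin filaments of actin, wrapped by tropomyosin and switched on by the calcium-sensing troponin complex, are anchored at their barbed ends in the Z-disc, where alpha-actinin cross-links them, and slide past myosin thick filaments that are cross-linked at the M-band. Titin spans from the Z-disc to the M-band and acts as a spring. Pkp2 encodes plakophilin-2 of the desmosome, which holds neighbouring heart muscle cells together at the intercalated disc, where the terminal thin filaments of each cell also attach. Mutations in many of the 38 genes cause hypertrophic or dilated cardiomyopathy in humans.

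Total counts ran from 32397302 to 38611008 in the 4 HET libraries and from 38510257 to 41234883 in the 4 WT libraries. Pkp2 itself averaged 97.3 ± 7.2 CPM in HET, against 162.7 ± 9.6 CPM in WT (CPM, counts scaled to a common library size by TMM factors; mean ± SD, n = 4 each), lower in the genotype that carries the deletion. The tissue was ventricular muscle by its markers: 8 heart muscle cell markers summed to between 85823 and 89437 CPM in the HET libraries and between 80035 and 85440 CPM in the WT libraries, so this sum did not overlap between the groups. Among the 8, Myh6 and Atp2a2 were each above WT in every HET library, and the others overlapped. The 5 atrial markers summed to 220.1 to 463 CPM in HET and 271 to 356 CPM in WT, and Myl7, Sln and Bmp10 among them had at most 4 counts in any library. Nearly all of the atrial sum was Nppa (217.9 to 461 CPM in HET and 269 to 352 CPM in WT), so it rests on that gene. The 8 skeletal muscle markers summed to 2643 to 2980.1 CPM in HET and 2491 to 2789 CPM in WT. Of these Myh4, Myh1, Actn3 and Tnnc2 had at most 12 counts in any library, while Ckm, which heart muscle also uses, had 87899 or more. Summed smooth muscle and pericyte markers (817 to 938 CPM in HET, 806 to 958 CPM in WT), fibroblast markers (949 to 1184 and 1012 to 1172 CPM), endothelial markers (943 to 1052 and 956 to 1180 CPM) and leukocyte markers (78.9 to 88.6 and 81.4 to 115.7 CPM) overlapped between HET and WT.

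No sarcomere gene differed between HET and WT ventricles beyond the threshold. Of the 38 genes 37 had enough counts to be tested, and the exception, Tnni1, is described with the thin filament. In edgeR's quasi-likelihood F-test, whose p-values were adjusted over 14567 genes by the Benjamini-Hochberg method, 0 of the 37 were called in either direction, where 0.00686% of all genes tested were called (1 gene, Pkp2). The members' adjusted p-values were 0.770 or higher. At an unadjusted p under 0.05 there were 3 members, Nexn, Pdlim3 and Tnnt2, all with a higher mean in HET, where 6.38% of all genes tested lay below that value (2.75% higher and 3.63% lower in HET). DESeq2 also called 0 of the 37, where it called 0.115% of all genes to which it gave an adjusted p. It put Cap2 beside the same 3 at an unadjusted p under 0.05. The share of all genes below that DESeq2 p was not counted, so these members cannot be set against it. In 0 of the 37 genes did the values of the 4 HET and the 4 WT libraries separate without overlap, against 3.78% of all genes tested (1.7% with HET above and 2.08% with HET below).

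Small shifts in either direction made up the rest. The log2 fold change (HET over WT) was positive for 25 of 37 members, and for 15 with library-size scaling alone and 16 with the title digits as covariate. Its median in the main fit was 0.03 over the members, beside -0.00 over all genes tested. In those 2 other fits the members' median was -0.0092 and -0.011. With library-size scaling alone the median of all genes moved as well, by -0.0427. The title digits are a number in the sample titles whose meaning the labels do not give. Of all 1371 genes at 100 CPM or more 73.0% were positive, with a median of 0.04, and so were 24 of the 33 members at that level, with a median of 0.04. The summed markers of heart muscle cells were above WT in every HET library, mainly through Myh6 and Atp2a2. Atp2a2 had 16279 ± 837 CPM in HET and 14144 ± 423 CPM in WT. The other markers overlapped between the groups, and Myl2 averaged 7729 ± 269 CPM in HET and 7736 ± 627 CPM in WT. The part of the markers in this shift was not tested. In bulk tissue, fewer cells of a type and less RNA per cell cannot be told apart. The 95% interval of the fold change lay inside 1.2-fold in both directions for 24 of the 37 members and inside 1.5-fold for 33. The 4 with wider intervals were Pdlim3, Tcap, Myot and Synpo2l, all of the Z-disc.

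**Figure D1:**
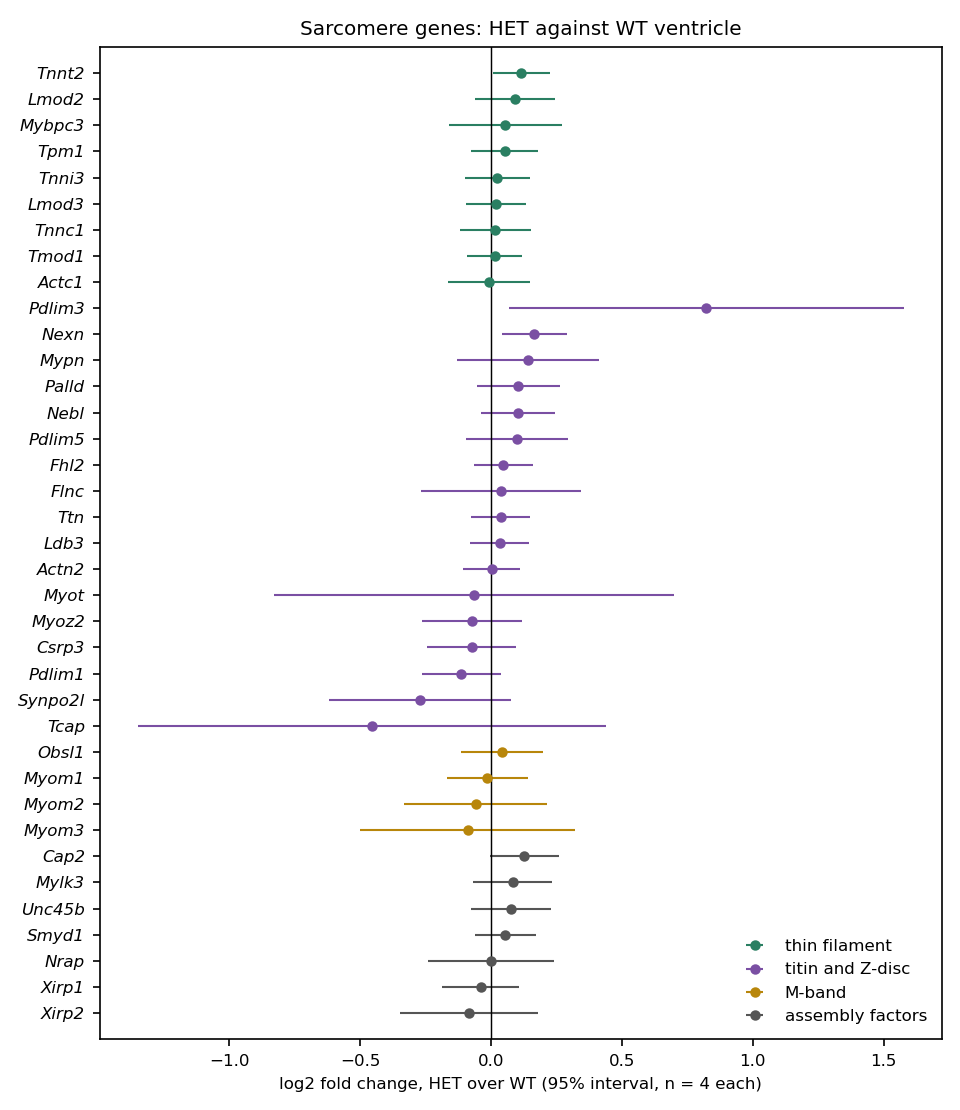
Log2 fold change of HET over WT (points) with its 95% interval (lines) for the 37 sarcomere genes tested, n = 4 libraries each, ordered within 4 groups of genes. Most intervals are short and cross 0. Those of Pdlim3, Tcap, Myot and Synpo2l are the wide ones.

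By level the genes spanned several orders of magnitude in both genotypes. On a scale of CPM per kilobase of the principal transcript, cardiac actin Actc1 led with 8828 ± 830 in HET and 8876 ± 608 in WT. Tnnt2 (5823 ± 145 in HET and 5374 ± 309 in WT), Tpm1 (5175 ± 97 and 4988 ± 424), Tnni3 (4709 ± 116 and 4629 ± 350) and Tnnc1 (3074 ± 209 and 3039 ± 187) followed on the same scale. In WT the neighbours Tnnt2 and Tpm1, and Tpm1 and Tnni3, lay within their spread of each other, and in HET they lay further apart than it. A second tier held Csrp3, Tcap, Mybpc3, Fhl2, Myoz2 and Actn2, with 817 to 1291 CPM per kilobase in HET and 816 to 1359 in WT. Titin, whose transcript is 100404 bases long, stood at 44.2 ± 0.8 CPM per kilobase in HET and 43.0 ± 2.8 in WT, although its reads alone gave 4437 ± 81 CPM in HET and 4322 ± 282 CPM in WT. Pdlim1, Myot, Pdlim3, Myom3 and Tnni1 were at the bottom. With the union of all annotated exons as length, which counts retained introns, Tnnt2 took rank 8 in WT (901 ± 22 CPM per kilobase in HET and 832 ± 48 in WT), so ranks among the troponins depend on the length used. Together the 38 genes took 6.41 ± 0.23% of all counts in HET and 6.50 ± 0.13% in WT.

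**Figure D2:**
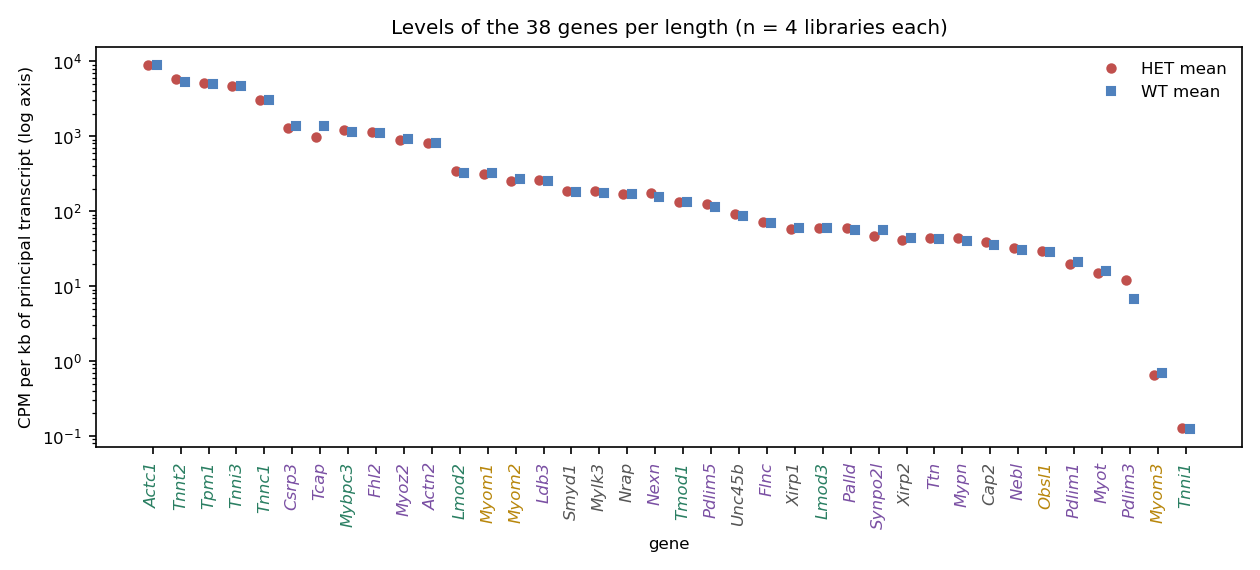
Mean level of the 38 genes as CPM per kilobase of the principal transcript (log axis) in HET (circles) and WT (squares), n = 4 libraries each, ordered by the WT mean. Label colours give the 4 groups (green thin filament, purple titin and Z-disc, ochre M-band, grey assembly factors). Actc1 leads, the thin filament core follows, and Myom3 and Tnni1 lie far below the rest.

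The sequences before the start sites were searched for motifs of factors known from heart muscle, and are shown for 9 members: 7 that hold such a motif there and the troponin I pair, whose levels lie far apart. Of the 38 genes 32 had a promoter window of 300 bases in RefSeq's annotation of GRCm38.p6, 46 windows in all. On both strands, a CArG box, the element bound by serum response factor, was present in 15.2% of the members' windows and 1.63% of all 32851 windows, and an MEF2 site in 17.4% and 3.19%. The M-CAT element of TEAD factors, CATTCC, was in 26.1% of the members' windows and 14.7% of all. The TATA box, searched as TATAAA, was in 13.0% and 13.6%. The GATA motif, searched as AGATAA, was in 13.0% and 11.2%. The E-box of helix-loop-helix factors, CANNTG, was in 76.1% and 72.3%. These shares are a description, and windows of one gene can overlap. In the 120 bases before the start that follow, written 5′ to 3′ on the gene's strand, capitals mark these motifs other than the E-box. Actc1, Ldb3 and Fhl2 hold a CArG box, Mybpc3, Myoz2 and again Fhl2 an MEF2 site (in Fhl2 overlapping a TATA box on the other strand, with a GATA motif between its 2 sites), Tnnt2 and Pdlim3 the M-CAT letters, and the troponin I pair Tnni3 and Tnni1 none of the 5 in this stretch.
Actc1 (chr2:114052876-114052995, minus strand): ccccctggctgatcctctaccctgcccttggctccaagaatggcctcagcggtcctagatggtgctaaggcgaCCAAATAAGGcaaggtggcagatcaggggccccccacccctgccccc
Ldb3 (chr14:34588682-34588801, minus strand): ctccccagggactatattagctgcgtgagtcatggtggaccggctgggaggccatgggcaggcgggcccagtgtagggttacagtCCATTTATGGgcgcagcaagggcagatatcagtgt
Fhl2 (chr1:43196762-43196881, minus strand): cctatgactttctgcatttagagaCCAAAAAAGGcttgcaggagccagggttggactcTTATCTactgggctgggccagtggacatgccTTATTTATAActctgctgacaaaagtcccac
Mybpc3 (chr2:91118024-91118143, plus strand): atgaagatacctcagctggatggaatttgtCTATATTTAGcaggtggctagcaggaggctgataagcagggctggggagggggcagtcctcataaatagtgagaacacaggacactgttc
Myoz2 (chr3:123034988-123035107, minus strand): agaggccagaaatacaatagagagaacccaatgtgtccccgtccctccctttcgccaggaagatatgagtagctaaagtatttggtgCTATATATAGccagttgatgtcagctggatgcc
Tnnt2 (chr1:135836214-135836333, plus strand): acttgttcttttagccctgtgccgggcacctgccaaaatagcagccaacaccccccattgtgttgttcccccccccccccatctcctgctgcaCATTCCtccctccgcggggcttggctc
Pdlim3 (chr8:45885367-45885486, plus strand): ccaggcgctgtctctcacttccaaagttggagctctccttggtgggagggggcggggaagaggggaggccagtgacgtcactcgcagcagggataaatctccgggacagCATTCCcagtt
Tnni3 (chr7:4522529-4522648, minus strand): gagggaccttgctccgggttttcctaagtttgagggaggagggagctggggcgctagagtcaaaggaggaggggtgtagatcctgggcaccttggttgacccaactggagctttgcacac
Tnni1 (chr1:135799301-135799420, plus strand): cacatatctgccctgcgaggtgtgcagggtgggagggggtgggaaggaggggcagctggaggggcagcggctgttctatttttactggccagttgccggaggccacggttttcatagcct

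In the thin filament 8 of 9 tested genes had a positive log2 fold change (4 with library-size scaling, 5 with the title digits as covariate), with a median of 0.02. None was called, and 8 of the 9 intervals lay inside 1.2-fold. Tnnt2 (troponin T, which ties the troponin complex to tropomyosin; ENSMUSG00000026414, chromosome 1, 135836354 to 135852260) had 7080, 7004, 7127 and 6738 CPM in HET, against 6067, 6901, 6241 and 6587 CPM in WT. The groups overlapped through WT replicate 2 and HET replicate 4. Its log2 fold change was 0.12 (SE 0.049, 95% interval 0.01 to 0.22), adjusted p = 0.770 (edgeR). It kept its sign in all 13 alternatives. Tpm1 (tropomyosin) had 9611, 10000, 9725 and 9951 CPM in HET and 8926, 10639, 8950 and 9357 CPM in WT, where the highest and the lowest library were both WT. Lmod2 (leiomodin-2, which lengthens thin filaments at their pointed ends) had 689, 657, 603 and 741 CPM in HET and 583, 671, 613 and 659 CPM in WT, in overlapping groups, with an interval of -0.06 to 0.24 on the log2 scale.

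The other troponin subunits, actin and the filament-end proteins had no call either. Tnni3 (the inhibitory troponin I of adult heart) averaged 4295 ± 106 CPM in HET and 4222 ± 319 CPM in WT, an interval of -0.10 to 0.15 on the log2 scale. Part of its exons overlap Dnaaf3 on the same strand, so its count is uncertain there. Tnnc1 (the calcium-binding troponin C) averaged 2216 ± 150 CPM in HET and 2191 ± 135 CPM in WT, an interval of -0.12 to 0.15. Actc1 averaged 13004 ± 1222 CPM in HET and 13075 ± 895 CPM in WT, an interval of -0.16 to 0.15. Reads from the coding part of Actc1 can be shared with Acta1, a near-identical actin, so both values are uncertain. Tmod1 (tropomodulin, the pointed-end cap) averaged 419 ± 12 CPM in HET and 415 ± 19 CPM in WT, and Lmod3 averaged 132.8 ± 5.0 and 131.1 ± 6.7 CPM. Tmod1 was the steadiest of all members, its highest library 1.10 times its lowest. Mybpc3 (myosin-binding protein C, which sits on the thick filament and touches actin) averaged 4984 ± 652 CPM in HET and 4796 ± 437 CPM in WT, an interval of -0.16 to 0.27.

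Tnni1 (slow skeletal troponin I, the isoform of the fetal heart, which Tnni3 replaces after birth) was near zero. It had 7, 3, 3 and 8 counts in the 4 HET libraries and 6, 5, 5 and 7 counts in the 4 WT libraries, against 142572 to 183942 counts of Tnni3 in the same libraries. It failed the filter on low counts and was not tested.

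In titin and the Z-disc 11 of 17 genes had a positive log2 fold change (7 with library-size scaling, 8 with the title digits), with a median of 0.04, and none was called. Nexn (nexilin, an actin-binding Z-disc protein; ENSMUSG00000039103, chromosome 3, 152236982 to 152266350) had the smallest p of the 38 genes. It stood at 451, 414, 467 and 440.4 CPM in HET and at 405, 386, 419 and 369 CPM in WT. HET replicate 2 lay below WT replicate 3, and the other 3 HET libraries lay above all WT libraries. The log2 fold change was 0.17 (SE 0.055, interval 0.04 to 0.29), at an unadjusted p of 0.0125 and an adjusted p of 0.770 (edgeR). It stayed between 0.12 and 0.20 over the 13 alternatives. Of the large structural genes, Ttn had an interval of -0.07 to 0.15 on the log2 scale, Actn2 (alpha-actinin-2) -0.11 to 0.11, Ldb3 (cypher, an alpha-actinin partner) -0.08 to 0.15 and Fhl2 (a LIM protein that binds titin) -0.07 to 0.16. Their means were 2463 ± 139 CPM in HET and 2457 ± 57 CPM in WT for Actn2, 1320 ± 74 and 1290 ± 41 CPM for Ldb3, and 1763 ± 100 and 1706 ± 63 CPM for Fhl2.

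Pdlim3 had the largest positive value and rested on a pair of HET libraries. Pdlim3 (ALP, a PDZ-LIM protein that binds alpha-actinin and whose loss in mice affects the right ventricle; ENSMUSG00000031636, chromosome 8, 45885461 to 45919548) stood at 27.9, 12.5, 10.9 and 24.9 CPM in HET and at 10.3, 11.1, 10.005 and 11.8 CPM in WT. HET replicates 1 and 4 were the highest of the 8, while HET replicates 2 and 3 lay beside the WT libraries. The log2 fold change was 0.82 (SE 0.320, interval 0.07 to 1.58) at an unadjusted p of 0.0367 and an adjusted p of 0.770 (edgeR). It was 0.58 without HET replicate 1 and 0.67 without HET replicate 4, and 1.02 without HET replicate 3. Myh7, the slow myosin heavy chain, stood at 61.4 and 83.0 CPM in HET replicates 1 and 4 and at 1055 and 1065 CPM in HET replicates 2 and 3. In WT replicates 1 and 4 Myh7 was at 89.6 and 73.3 CPM while Pdlim3 was at 10.3 and 11.8 CPM. The part of Myh7 in the Pdlim3 values was not tested. Of its relatives, Pdlim5 (ENH) averaged 620 ± 76 CPM in HET and 579 ± 47 CPM in WT; its highest value was also in HET replicate 1 (725 CPM), and Pdlim1 (CLP36) averaged 50.02 ± 4.72 and 54.1 ± 2.3 CPM.

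Synpo2l and Myot were both highest in WT replicate 1. Synpo2l (a Z-disc protein related to synaptopodin) stood at 205, 157, 193 and 184 CPM in HET and at 281, 227, 216 and 167 CPM in WT. WT replicates 1, 2 and 3 lay above all HET libraries, and WT replicate 4 lay within the HET range. The log2 fold change of -0.27 (interval -0.62 to 0.08) was -0.14 without WT replicate 1. It stayed negative in all 13 alternatives. Myot (myotilin, an alpha-actinin and filamin partner) stood at 30.8, 27.9, 36.5 and 38.3 CPM in HET and at 60.2, 25.6, 29.7 and 24.2 CPM in WT. All 4 HET libraries lay inside the WT range, and the log2 fold change of -0.07 (interval -0.83 to 0.70) was 0.34 without WT replicate 1. Nebl (nebulette) had 177, 179, 210.3 and 179 CPM in HET and 177, 170.2, 181 and 165 CPM in WT. HET replicate 3 stood above the other 7 libraries, and the log2 fold change of 0.10 (interval -0.04 to 0.24) was 0.04 without it.

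**Figure D3:**
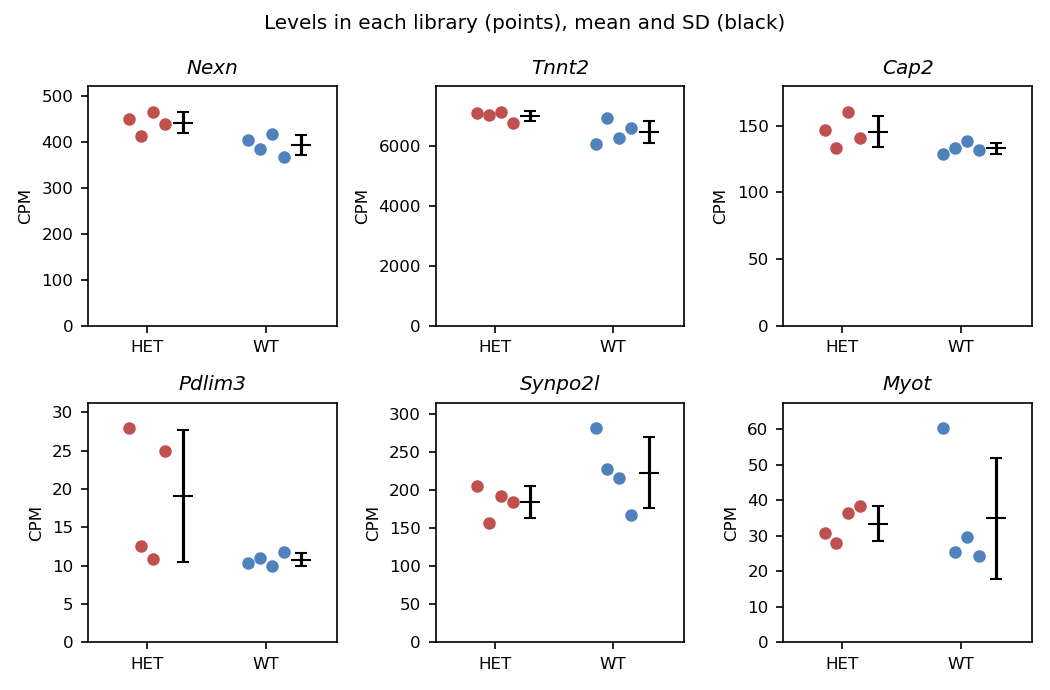
CPM in each of 4 HET and 4 WT libraries (points) with mean and SD (black) for Nexn, Tnnt2, Cap2, Pdlim3, Synpo2l and Myot. In each panel the genotypes overlap. HET replicates 1 and 4 carry the high Pdlim3 values, and WT replicate 1 the high Myot value. Synpo2l is highest in WT replicate 1, and WT replicates 2 and 3 also lie above all HET libraries.

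Among the remaining Z-disc genes Palld (palladin) averaged 215.8 ± 17.0 CPM in HET and 201 ± 16 CPM in WT, Mypn (myopalladin) 229 ± 14 and 208 ± 38 CPM, and Flnc (filamin C) 643 ± 73 and 626 ± 114 CPM. Csrp3 (muscle LIM protein) averaged 1161 ± 105 CPM in HET and 1222 ± 105 CPM in WT. Myoz2 (calsarcin-1, which tethers calcineurin) averaged 1043 ± 89 CPM in HET and 1096 ± 123 CPM in WT. Each of these 5 had overlapping groups and an edgeR adjusted p of 0.778 or higher. The coefficient of variation was 5.999% in HET and 18.2% in WT for Mypn, and 11.4% in HET and 18.2% in WT for Flnc.

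Tcap varied most of the tested members, within WT. Tcap (telethonin, which links titin ends at the Z-disc; ENSMUSG00000007877, chromosome 11, 98383811 to 98384953) stood at 1054, 1019, 788 and 884 CPM in HET and at 803, 2151, 722 and 1453 CPM in WT. WT replicates 2 and 4 were above all other libraries, and WT replicates 1 and 3 lay among or below the HET libraries. The coefficient of variation was 13.1% in HET and 51.9% in WT, and the log2 fold change was -0.45 (SE 0.372, interval -1.35 to 0.44, adjusted p = 0.813, edgeR). It was -0.08 without WT replicate 2, and 0.05 with the title digits as covariate, a fit in which WT replicate 2 stands alone in its level and so adds nothing. The values of 5 circadian clock genes, picked after the Tcap values were seen, are given beside it. Dbp, a clock output factor, stood at 55.0, 59.6, 33.5 and 35.2 CPM in HET and at 30.2, 231.2, 31.5 and 112.5 CPM in WT, with WT replicates 2 and 4 again the 2 highest. Ciart, a clock repressor, had its 2 highest values in the same libraries (33.6 and 6.45 CPM, against 1.498 to 3.74 CPM in the other 6). Arntl (Bmal1), whose peak falls opposite to that of Dbp, had its 2 lowest values there (3.42 and 12.4 CPM, against 19.6 to 28.8 CPM). Nr1d1 was highest there too (228 and 246 CPM, against 140.1 to 175.6 CPM). Per2 was highest in WT replicate 2 (39.1 CPM) but not next highest in WT replicate 4 (8.84 CPM, inside the HET range of 7.25 to 10.9 CPM). The part of the clock genes in the Tcap values was not tested.

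**Figure D4:**
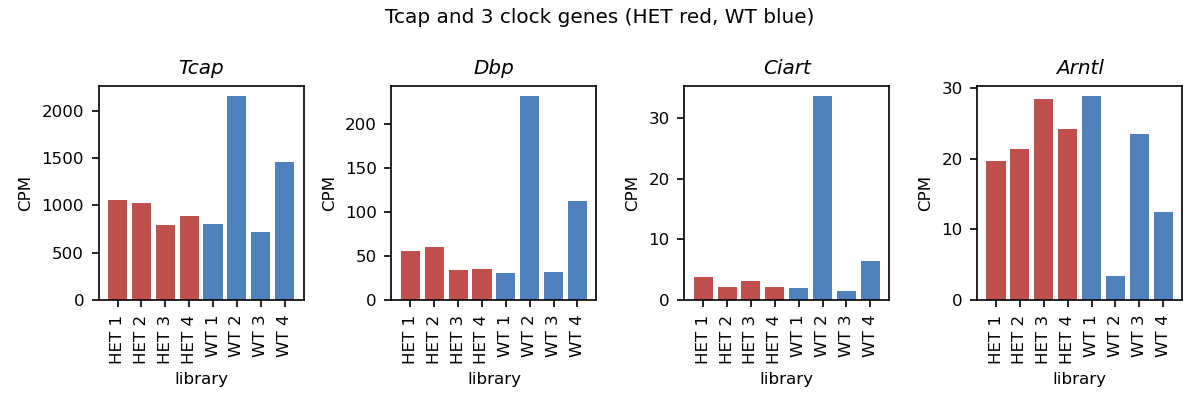
CPM of Tcap, Dbp, Ciart and Arntl in each library (bars, HET red and WT blue). WT replicates 2 and 4 have the highest Tcap, Dbp and Ciart and the lowest Arntl.

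The M-band genes were not called, and 1 of 4 had a positive log2 fold change (0 with library-size scaling or the title digits), with a median of -0.04. Obsl1 (obscurin-like 1, which ties titin to myomesin) stood at 184, 149, 166 and 171 CPM in HET and at 170.04, 171, 163 and 147 CPM in WT. Myom2 (M-protein) stood at 1369, 1163, 1254 and 1408 CPM in HET and at 1332, 1689, 1277 and 1111 CPM in WT. WT replicate 2 was the highest, and without it the log2 fold change of -0.06 (interval -0.33 to 0.21) was 0.07. Myom3 (the third myomesin) was weak, with 4.32, 4.27, 2.85 and 3.003 CPM in HET and 4.66, 4.28, 3.33 and 3.07 CPM in WT, 107 to 194 counts a library. Myom1 (myomesin, the main cross-linker) averaged 1784 ± 186 CPM in HET and 1800.1 ± 70.8 CPM in WT. Its exons overlap Myl12a on the other strand, as those of Tmod1 (Tstd2), Ttn (Gm13938), Nrap (Habp2 and Gm17197), Xirp2 (Gm13601) and Unc45b (Unc45bos and Slfn5os) overlap the genes named. Whether counting used strand is not given in the sources used here, so the values of these genes are uncertain to that extent.

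The assembly factors had 5 of 7 positive log2 fold changes (4 with library-size scaling, 3 with the title digits), a median of 0.05 and no call. Cap2 (cyclase-associated protein 2, which turns over actin; chromosome 13, 46501848 to 46650281) stood at 147, 133.4, 160.4 and 141 CPM in HET and at 129, 133.1, 138 and 132 CPM in WT. HET replicate 2 lay within the WT range and the other 3 HET libraries above it, with a log2 fold change of 0.13 (SE 0.060, interval -0.00 to 0.26, adjusted p = 0.770, edgeR). It was 0.08 without HET replicate 3. Mylk3 (the cardiac kinase of myosin light chain 2) stood at 666, 699, 675 and 720.5 CPM in HET and at 576, 685, 722 and 622 CPM in WT. Unc45b (a myosin chaperone) stood at 327, 313, 338 and 314 CPM in HET and at 289, 278, 349 and 308 CPM in WT. Of both genes WT libraries held the highest and the lowest value. Smyd1 (a methyltransferase that works with Unc45b on myosin) averaged 616 ± 36 CPM in HET and 593 ± 21 CPM in WT. Nrap (a scaffold of new myofibrils and of the intercalated disc) averaged 942 ± 116 CPM in HET and 941 ± 121 CPM in WT, an interval of -0.24 to 0.24. The Xin-repeat actin binders of the intercalated disc, Xirp1 (342 ± 31 CPM in HET and 352 ± 17 CPM in WT) and Xirp2 (498 ± 57 and 527 ± 85 CPM), had groups that overlapped.

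Libraries of one genotype also differed among themselves. HET replicate 1 was the highest of the 8 libraries for 9 of the 37 tested members, among them Actc1, Mybpc3 and Actn2, and the lowest for 0. HET replicate 2 was the highest for 0 and the lowest for 9. Over all genes at 100 CPM or more HET replicate 1 was the highest for 17.1% and the lowest for 3.501%, and HET replicate 2 for 7.59% and 8.39%. WT replicate 1 was the highest for 8 members (Tmod1, Myot, Mypn, Synpo2l, Flnc, Myom3, Nrap and Xirp2) and the lowest for 7, beside 9.19% and 15.7% of all genes at that level. WT replicate 2 was the highest for 7 (Tpm1, Tnni3, Tnnc1, Tcap, Csrp3, Myoz2 and Myom2) and the lowest for 5, beside 16.4% and 23.9%. The median coefficient of variation of the tested members was 8.60% in HET and 7.48% in WT, beside 8.10% and 9.46% for all genes tested. At 100 CPM or more it was 7.88% in HET and 6.86% in WT for the members, beside 4.62% and 6.19% for all genes at that level.

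**Figure D5:**
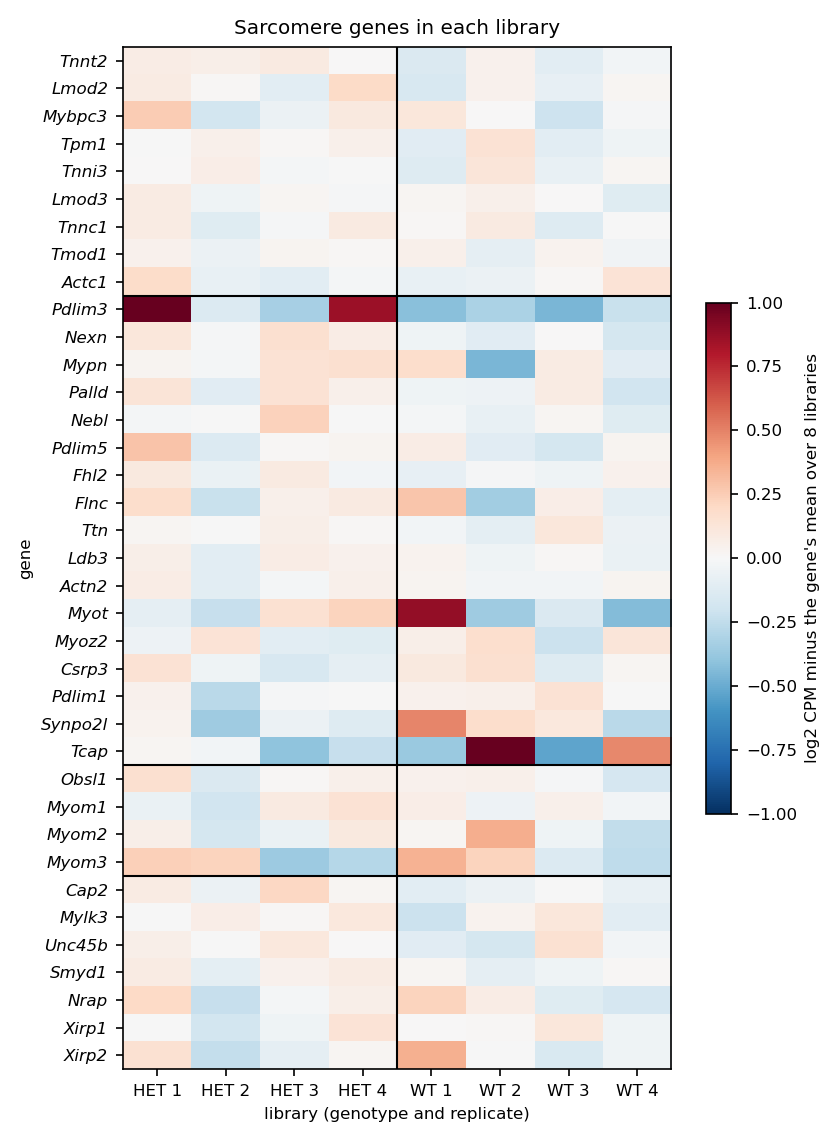
Log2 CPM of the 37 tested genes in each library, minus the gene's mean over the 8 libraries (red higher, blue lower; colours saturate at 1). The vertical line parts HET from WT and horizontal lines part the groups of genes. Tcap in WT 2 and WT 4, Pdlim3 in HET 1 and HET 4 and Myot in WT 1 stand out.

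Ratios within a library do not depend on library scaling, and 22 of them, set between subunits and paralogues, were compared by exact two-sided permutation tests over 70 splits. None passed after Benjamini-Hochberg adjustment (adjusted p-values of 0.629 to 1.0). The smallest p the test can give is 0.0286. A single ratio at that p has an adjusted p of 0.629 over 22 ratios, so no ratio could pass alone. The lack of a call therefore does not show that the ratios were equal. Only 1 ratio had that smallest p. That was Tnnt2 over Tnni3, at 0.441, 0.419, 0.451 and 0.422 in HET and 0.414, 0.397, 0.410 and 0.407 in WT on a scale per length of union exons, so HET and WT did not overlap. The means were 0.433 ± 0.015 in HET and 0.407 ± 0.007 in WT. With principal transcripts as lengths the same ratio was 1.24 in HET and 1.16 in WT, and lengths do not enter the test. Leiomodin-2 over tropomodulin-1 (3.20 ± 0.28 in HET and 3.05 ± 0.33 in WT), Ldb3 over Actn2 (0.333 ± 0.012 and 0.326 ± 0.012) and Myom2 over Myom1 (0.863 ± 0.071 and 0.891 ± 0.183), on the scale of union exons, overlapped. Skeletal actin Acta1 over Actc1 was 0.0656 ± 0.0347 in HET and 0.0729 ± 0.0570 in WT, in overlapping groups with a wide spread.

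Other genes of the contractile apparatus, 74 in 4 lists of which 67 were tested, gave 0 calls in either direction by edgeR, with 48 positive log2 fold changes and a median of 0.05. Positive values made up 48.5% of all genes tested and 73.0% of those at 100 CPM or more. The positive counts given here are from the main fit alone, and those of the members depended on the fit. At an unadjusted edgeR p under 0.05 lay 8 of the 67 with a positive and 4 with a negative value. Of all genes 6.38% lay there. Adjusted p-values of the 67 were 0.770 or higher. Of the 67, Myh6, Capza2, Synpo2, Des, Dnajb6 and Asb2 had HET above WT without overlap, and Cfl1 had HET below. Over all genes tested 1.7% had HET above without overlap and 2.08% had HET below. Of the genes just named only Dnajb6 lay below 100 CPM. Among the 1371 genes at 100 CPM or more, 81 did not overlap in either direction. At an unadjusted edgeR p under 0.05 lay 8.68% of those 1371. Of 9 thick filament genes tested 5 were positive. The 3 with the smallest p were Myh6 (the main ventricular myosin of the adult mouse), with a mean of 36583 ± 1011 CPM in HET, against 33577 ± 665 CPM in WT without overlap, Myl4 (an atrial light chain; 2.01 ± 0.32 and 2.83 ± 0.75 CPM, the lower mean in HET) and Myh7b (265 ± 25 and 237 ± 25 CPM). Of 19 further actin and thin filament genes 14 were positive. The 3 with the smallest p were Cfl1, with the lower mean in HET (cofilin, which severs actin; 105.2 ± 2.9 CPM in HET and 114.8 ± 2.6 CPM in WT), Lmod1 (5.38 ± 0.58 and 4.29 ± 0.47 CPM) and the formin Fhod3 (383 ± 21 and 350.01 ± 10.73 CPM). Of 21 further Z-disc and M-band genes 13 were positive. The smallest p-values belonged to Cmya5 (myospryn; 731 ± 26 CPM in HET and 659.5 ± 41.2 CPM in WT), Csrp1 (48.6 ± 1.8 and 52.7 ± 1.3 CPM, the lower mean in HET) and the intermediate filament gene Des (2369 ± 71 and 2199 ± 79 CPM). Of 18 chaperone and turnover genes 16 were positive. The smallest p-values belonged to Dnajb6 (14.7 ± 1.0 CPM in HET and 12.7 ± 0.3 CPM in WT), Asb2 (a ubiquitin ligase subunit that targets filamins; 676 ± 14 and 599 ± 44 CPM) and Cap1 (51.4 ± 2.7 and 59.3 ± 5.8 CPM, the lower mean in HET).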

How the data were processed

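The deposited values are raw read counts per Ensembl gene, whole numbers in 8 columns named by sample title. STAR 2.4.2a, HTSeq 0.6.1 and the build GRCm38/mm10 are named in the submitters' processing notes. The annotation release and strand setting are not given in the sources used here. Symbols (36345 of 38293 genes), positions and lengths came from GENCODE M21. Differences came from edgeR 4.0.16 (R 4.3.3): filterByExpr (14567 genes kept), TMM scaling, robust quasi-likelihood test without covariates, Benjamini-Hochberg adjustment, threshold 0.05. CPM use TMM-scaled library sizes. Groups came from the genotype label, and replicates were numbered in deposition order. Within groups the mean chi-square per gene between libraries was 14.0 or more, so none repeats another. It was highest in the pairs with WT replicate 3 (68.0 to 85.8), against at most 40.9 in the other pairs. DESeq2 1.42.0 was an alternative, beside other scaling, no filter, a covariate of title digits whose meaning the labels do not give, and leaving out each library. The code was tested on simulated counts. Members, lists and ratios were chosen with earlier results of these data known. Values per library are given for the 3 members of smallest p in each group and those with an outlying library. From other lists, the 3 of smallest p are named. Tcap, the clock genes, the principal transcript lengths and the promoters printed were chosen after values were seen.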

Additional observations from a re-analysis of the deposited data

Results flagged for a closer look

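Of 76 sets of 4 libraries (38 genes in each genotype) 2 held a library far from the other 3, with a gap to its nearest neighbour beyond Dixon's 95% critical value. That is 2.63%, against 5.92% over all genes tested and the 1 in 20 that chance gives. Myot stood at 60.2 CPM in WT replicate 1, where the other WT libraries had 24.2 to 29.7 CPM. Nebl stood at 210.3 CPM in HET replicate 3, where the other HET libraries had 177 to 179 CPM.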

How the results depend on the processing

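In 13 alternatives 0 of the 37 tested members were called, with adjusted p-values of 0.430 or higher. The members' median log2 fold change moved by less than the spread between libraries (0.0498) in each, to between -0.011 and 0.059. Over all genes DESeq2 called 7 higher and 7 lower, the fit without a filter on low counts 2 lower, and leaving out 1 library 1 to 3 lower, 3 without HET replicate 3. Of the members 14 kept their sign in every alternative (11 positive, 3 negative), and 23 changed sign in some. With 1 exception each way (Tcap and Mypn), those that changed sign had values between -0.089 and 0.098. With RLE scaling, no filter or DESeq2 none changed sign. Log2 fold changes of opposite sign with the title digits as covariate were Tnnc1 -0.0062, Tmod1 -0.041, Mybpc3 -0.043, Actn2 -0.046, Ldb3 -0.025, Tcap 0.050, Myoz2 0.0030, Mypn -0.034, Pdlim5 -0.011, Flnc -0.19, Obsl1 -0.0085, Nrap -0.12, Smyd1 -0.012. With library-size scaling alone, added after the data were seen, the median of all genes moved by -0.0427 and those of opposite sign were Tnni3 -0.017, Tnnc1 -0.025, Tmod1 -0.029, Lmod3 -0.024, Ttn -0.0060, Actn2 -0.040, Ldb3 -0.0092, Flnc -0.0062, Obsl1 -7.5e-05, Nrap -0.041. Leaving out 1 library gave ranges that crossed 0 for Actc1 -0.075 to 0.039, Tnni3 -0.0087 to 0.072, Tnnc1 -0.024 to 0.059, Tmod1 -0.012 to 0.038, Lmod3 -0.016 to 0.040, Mybpc3 -0.024 to 0.12, Actn2 -0.021 to 0.038, Myot -0.21 to 0.34, Flnc -0.059 to 0.15, Myom1 -0.061 to 0.046, Myom2 -0.14 to 0.067, Myom3 -0.19 to 0.021, Obsl1 -0.0059 to 0.094, Nrap -0.070 to 0.082, Xirp1 -0.092 to 0.012, Xirp2 -0.15 to 0.037. None of the 22 ratios passed with any 1 library left out, where 3 against 4 allows no p below 0.0286. No ratio could pass alone there either. Causes were not tested. No paired analysis was possible because the replicate numbers only follow the order of deposition. At 3 to 8 counts Tnni1 is limited by depth, and the other members had 107 counts or more in every library.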

Other observations

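Acta1, the skeletal actin that the heart expresses before birth and under load, stood at 1588, 355, 642 and 766 CPM in HET and at 1826, 318, 600.5 and 825 CPM in WT, with the first replicate of each genotype highest. Ankrd1, a titin-associated stress gene, had 1742, 1009, 1093 and 1459 CPM in HET and 1988, 1424, 1225 and 1354 CPM in WT, again with the first replicates highest. Xirp2, Nrap and Flnc had their highest value in each genotype in the same libraries. In HET replicates 1 to 4 Xirp2 was at 566, 432, 479 and 515 CPM, and in WT replicates 1 to 4 at 650.3, 506, 457 and 495 CPM. No cause was tested.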
